A study of Mus musculus with 9 samples.

Results

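Major histocompatibility complex (MHC) class I molecules carry short peptides from inside the cell to its surface. The 10 genes described here encode the shared light chain (B2m), heavy chains (H2-K1, H2-D1, H2-T23 and H2-Q7), the peptide transporter (Tap1 and Tap2), a loading chaperone (Tapbp), a peptide-trimming enzyme (Erap1) and the transcriptional activator of the pathway (Nlrc5). They were listed by symbol and matched to Ensembl identifiers. The choice rests on their role in the pathway and was made with earlier results of these data known. All 10 were among the 14004 genes of the deposited table.

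RNA-seq libraries were made from iNKT1 cells, the T-bet-expressing subset of invariant natural killer T cells, which recognise lipids on the class I-like molecule CD1d. There were 9 libraries, 3 each from thymus, liver and spleen, and the sources give no age. In the deposited table the column of thymus replicate 2 carries a letter more than the other names, and no label says what it stands for. All mice were C57BL/6 with the genotype Tbx21CreTg;Rosa26-LSL-YFP+/+ and received no treatment, so the Cre transgene driven by Tbx21 and its YFP reporter were present in every group. The reporter marks cells with present or past activity of that promoter. The series calls these replicates independent but does not say whether they came from separate mice, so the p-values measure only the spread between these samples.

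As background, peptides are cut by the proteasome, pumped into the endoplasmic reticulum by the heterodimer of TAP1 and TAP2, trimmed by ERAP1 and loaded on heavy chains held beside the transporter by tapasin, the product of Tapbp. A heavy chain needs beta-2 microglobulin and a peptide to reach the surface stably. The classical chains H2-K and H2-D present peptides to CD8 T cells, whereas Qa-1, the product of H2-T23, is the ligand of the CD94/NKG2 receptors. Interferons, NF-kappaB and NLRC5 act on promoters of class I genes.

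The sequences of 3 promoters show exact matches to a motif that the most abundant heavy chain genes share and to another in the light chain gene. Sites that differ from the searched letters are not marked in any window. RefSeq windows (GRCm38.p6, 250 bases before the start, 5′ to 3′ on the strand of the gene) were matched for 8 of the 10 genes; Tap2 and Nlrc5 had no entry. Capitals mark a kappaB motif of 10 letters in H2-K1 and H2-Q7, and in B2m the core of an interferon-stimulated response element, GAAA repeated after 2 bases of any kind.
H2-K1, chr17:34000348-34000597, minus strand: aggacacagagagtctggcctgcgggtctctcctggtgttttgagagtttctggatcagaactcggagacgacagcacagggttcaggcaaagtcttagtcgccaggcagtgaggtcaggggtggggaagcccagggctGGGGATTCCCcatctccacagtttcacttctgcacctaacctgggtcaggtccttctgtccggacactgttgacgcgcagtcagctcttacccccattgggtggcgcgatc
H2-Q7, chr17:35438905-35439154, plus strand: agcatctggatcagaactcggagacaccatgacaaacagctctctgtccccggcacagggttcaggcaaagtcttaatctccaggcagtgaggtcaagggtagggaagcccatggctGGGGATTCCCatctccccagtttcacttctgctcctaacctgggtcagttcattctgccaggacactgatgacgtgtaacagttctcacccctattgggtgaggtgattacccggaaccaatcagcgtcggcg
B2m, chr2:122147437-122147686, plus strand: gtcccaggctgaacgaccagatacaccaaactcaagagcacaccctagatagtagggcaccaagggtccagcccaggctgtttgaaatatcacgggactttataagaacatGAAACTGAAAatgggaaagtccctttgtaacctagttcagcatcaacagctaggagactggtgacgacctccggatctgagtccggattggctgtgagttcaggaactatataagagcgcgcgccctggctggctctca

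The kappaB motif, searched as the letters in capitals in H2-K1, was present in 3 of the 8 windows, those of H2-K1, H2-D1 and H2-Q7, and in 0.0852% of all 32851 windows of that length. Those were 28 windows of 27 genes, of which the only other one named H2 was H2-Q6. Counted outward from the motif without gaps, the windows of H2-K1 and H2-D1 were identical at 166 of 190 bases (87.4%). The H2-D1 window is not printed because it lies in the first exon of a longer GENCODE transcript. The interferon element core was found in 2 windows (B2m and H2-T23; 2.98% of all), CCAAT in 7 (33.8%), TGACG in 5 (17.8%) and TTCNNNGAA in none of the 8 (7.02%). The 5 motifs were searched on both strands by exact letters. A window without a match may still hold a related element with other letters. The matched letters of CCAAT and TGACG did not overlap the kappaB motif in H2-K1, H2-D1 or H2-Q7. A match describes these bases and not binding, which was not measured.

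The libraries differed in ways other than tissue. Depth, estimated from the step between low values, was about 18520000 to 37170000 reads in the 7 libraries whose whole reads could be recovered. In liver replicate 3 and spleen replicate 3 they could not, and the depths of about 3880000 and 39580000 reads are uncertain. Thymus replicates 1 and 2 had the fewest genes with a read (10476 and 11180, against 11781 to 13038 in the others). All 7 iNKT1 markers (Cd3e, Cd3g, Zbtb16, Tbx21, Il2rb, Klrb1c and Xcl1) were present in all 9 libraries. Among B cell genes, the normalised read count of Igkc was 49535, 80.6 and 55.5 in liver replicates 1 to 3, 18137, 17.8 and 22.1 in spleen and at most 161 in thymus, and that of Ms4a1 was 423, 0 and 7.11 in liver, 514, 0 and 16.7 in spleen and near 0 in thymus. Ighm was 3157 to 5350 in thymus, 5257 to 7338 in liver and 5260 to 9283 in spleen, highest in spleen replicate 3. Cd79a was 11.3, 1.69 and 138 in liver and 625, 0 and 1.12 in spleen, and Cd79b 144, 0 and 0.840 in liver and 587, 0 and 0 in spleen; both were near 0 in thymus. The 6 hepatocyte genes in the table, of 8 listed, summed to 1399 to 1765 in liver, mostly Alb, to at most 269.6 in thymus and to at most 24.4 in spleen. Fabp1, a defining hepatocyte gene, was at 9.68 in liver replicate 3 and at or near 0 in the other 8 libraries. Apob was 435, 56.6 and 37.2 in liver and at most 10.4 elsewhere, and Apoa2 41.9, 2.54 and 102, at most 3.81 elsewhere. Ttr was 0, 36.9 and 35.4 in liver and at most 3.67 elsewhere, and Apoa1 0, 6.00 and 42.8, at most 1.19 elsewhere. The table held 4 of the 6 immature thymocyte genes listed. Rag1, which immature thymocytes express, was 486 in thymus replicate 3 and below 1 in the other libraries. Dntt was 11.3 in thymus replicate 3 and below 1 in the others. Cd4 went the other way and was lowest in thymus replicate 3 (985), against 2580 and 7393 in thymus replicates 1 and 2. In liver and spleen Cd4 was 5468 to 10054. Cd8b1 was 28.9 in thymus replicate 3 and 40.9 in liver replicate 1. The part of these other cells in the results below was not tested, except where values without a library are given. In bulk samples, fewer cells of a type and less RNA per cell cannot be told apart.

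**Figure D1:**
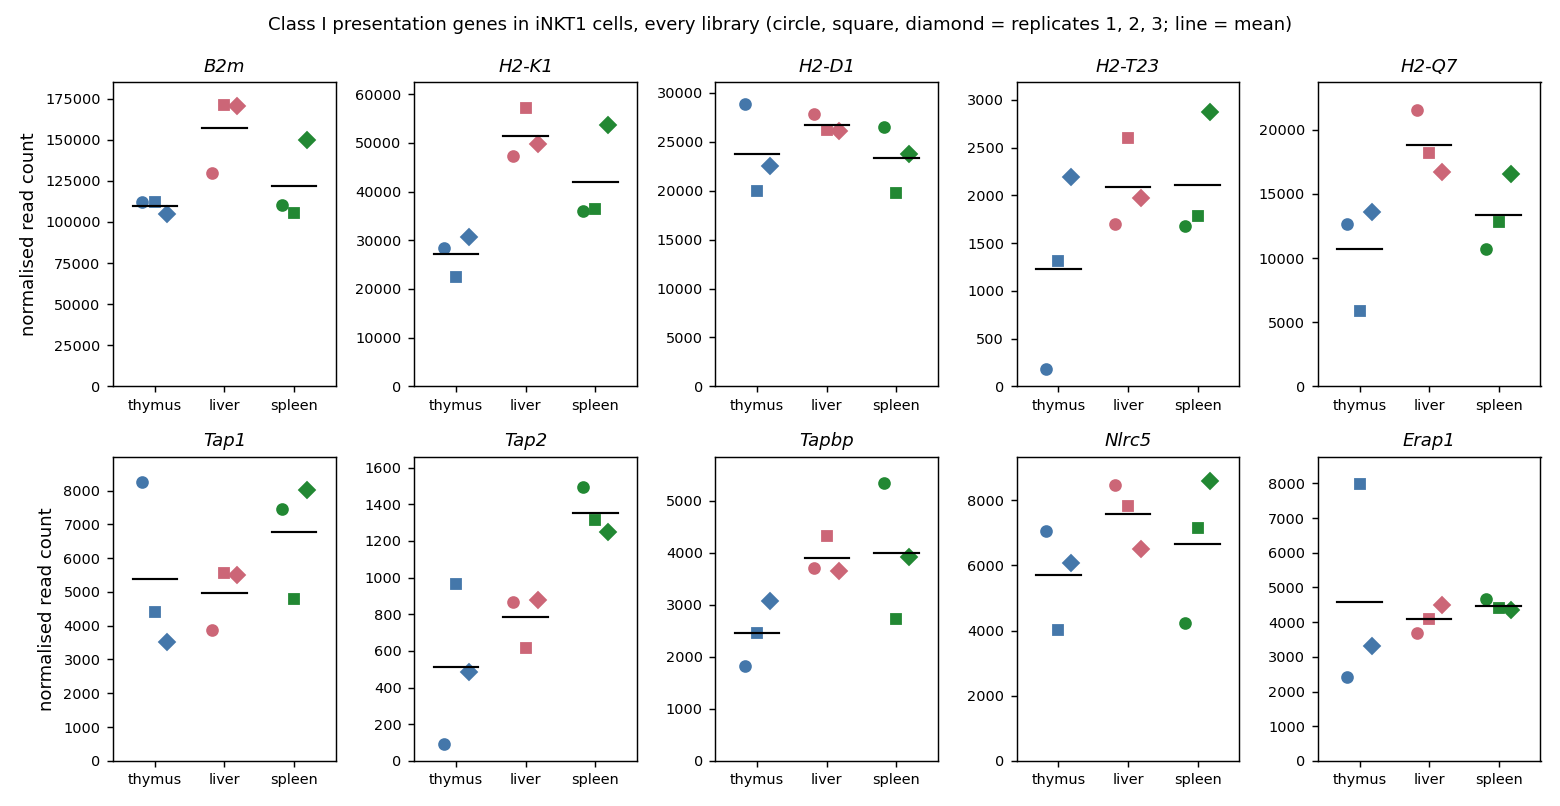
Normalised read count (vertical axis, each starting at 0) of the 10 class I presentation genes in each library of thymus, liver and spleen; circles, squares and diamonds are replicates 1, 2 and 3 and the line is the mean. H2-K1 values of all liver and spleen libraries lie above the 3 thymus values, whereas those of H2-D1 overlap.

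No class I presentation gene passed the test between any 2 tissues. The test was limma-trend on log2(value + 1) over 13309 genes, with Benjamini-Hochberg adjustment and a threshold of 0.05, and all 10 genes passed the filter on low values. In liver against thymus 0 of 10 passed, where 0.323% of all genes did (43 genes), and at an unadjusted p under 0.05 there were 3 of 10, all higher (B2m, H2-K1 and H2-Q7), against 11.6% of all genes. In spleen against thymus 0 of 10 passed, against 0.398% (53 genes), with 2 of 10 unadjusted (H2-K1 and Tap2), against 11.7%. In liver against spleen 0 of 10 passed, against 0.015% (2 genes), with 1 of 10 unadjusted (B2m), against 3.03%. The F-test for any tissue difference gave 0 of 10, against 0.346%, with 3 unadjusted against 9.95%. Counts by edgeR and DESeq2 on the 7 libraries with whole reads were also 0 of 10 in each.

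Over the 10 genes the median log2 fold change was 0.60 in liver against thymus and 0.39 in spleen against thymus. The medians of all genes tested were 0.29 and 0.33, and changes are read against these; with TMM scaling (edgeR's trimmed mean of M values) these were 0.04 and 0.04, and those of the 10 genes were 0.32 and 0.08. Liver against spleen gave 0.11 for the 10 genes and -0.02 for all. Single libraries moved these medians: without spleen replicate 3 the spleen median of the 10 genes was 0.23, against 0.30 for all genes, and without thymus replicate 3 it was 0.43 against 0.46. Without thymus replicate 1 the liver median was 0.42 against 0.17. Without spleen replicate 2 the liver against spleen median was -0.0025, and without spleen replicate 3 it was 0.23, where those of all genes were both -0.01. Every value was above the other 3 for 4 of 10 genes in liver against thymus (B2m, H2-K1, H2-Q7 and Tapbp; 9.61% of all genes) and for 2 of 10 in spleen against thymus (H2-K1 and Tap2; 9.29%). In liver against spleen 1 of 10 lay above without overlap (H2-Q7; 5.97% of all genes) and 1 below (Tap2; 6.77%). In no gene of the 10 did all liver or all spleen values lie below thymus, against 5.73% and 6.03% of all genes. The 2 comparisons share the thymus libraries.

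**Figure D2:**
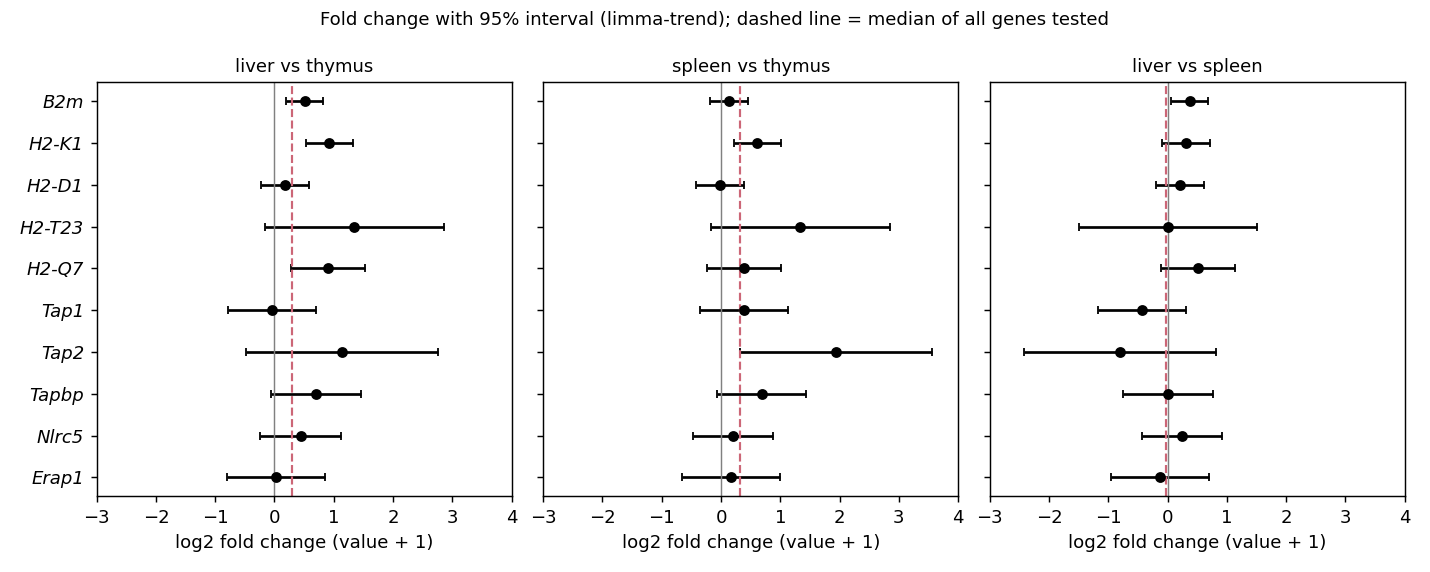
Log2 fold change of value + 1 for each of the 10 genes in 3 tissue comparisons; points are estimates, bars 95% intervals from limma-trend, the grey line 0 and the dashed line the median of all genes tested. The intervals of H2-K1 against thymus lie above 0 in liver (0.52 to 1.33) and spleen (0.21 to 1.01), and those of H2-T23 and Tap2 are the widest. The spleen interval of H2-K1 includes the median of all genes (0.33), and the liver one lies above it (0.29).

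B2m (ENSMUSG00000060802; chr2:122147686-122153083 in GRCm38, plus strand) encodes beta-2 microglobulin, the light chain common to all the heavy chains. Its normalised read counts were 112060, 111837 and 104546 in thymus, 129669, 171040 and 170195 in liver and 110298, 105493 and 149797 in spleen. Every liver value lay above every thymus value, and spleen overlapped both. The log2 fold change was 0.51 (95% interval 0.19 to 0.83, adjusted p = 0.202, limma-trend) in liver against thymus, 0.14 (-0.18 to 0.45) in spleen against thymus and 0.37 (0.06 to 0.69) in liver against spleen. B2m was among the genes with the highest normalised read counts, at rank 5 to 11 of all genes by library, without correction for length. With TMM scaling the spleen estimate was -0.17.

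Of the classical heavy chains, H2-K1 had values in liver and spleen above all those in thymus, and H2-D1 had overlapping values; neither passed the test. H2-K1 (ENSMUSG00000061232; chr17:33996017-34000347, minus strand) had normalised read counts of 28425, 22561 and 30646 in thymus, 47207, 57141 and 49813 in liver and 35947, 36413 and 53569 in spleen. The thymus values were the lowest 3 of the 9. Means were 27211 ± 4177, 51387 ± 5151 and 41976 ± 10042 (SD, n = 3), so liver was 1.89-fold and spleen 1.54-fold thymus. The liver log2 fold change of 0.92 (SE 0.19, 95% interval 0.52 to 1.33) missed the threshold with an adjusted p of 0.0516 (limma-trend), as did the spleen one of 0.61 (0.21 to 1.01, adjusted p = 0.216). Without thymus replicate 3 the liver adjusted p was 0.0388, with library totals set equal without mitochondrial genes it was 0.0369, and over all 25 alternatives it ran from 0.0369 to 0.498. The liver estimate was 0.64 to 1.09 in all of them, and 0.98 without liver replicate 1 and spleen replicate 1, the highest in Igkc and Ms4a1. The spleen estimate ran from 0.30 to 0.78 over those alternatives.

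H2-D1 (ENSMUSG00000073411; chr17:35262730-35267499, plus strand) had 28834, 19935 and 22507 in thymus, 27799, 26202 and 26043 in liver and 26528, 19718 and 23692 in spleen. The 3 tissues overlapped. The 95% interval of the log2 fold change was -0.22 to 0.59 for liver against thymus, -0.43 to 0.38 for spleen against thymus and -0.20 to 0.61 for liver against spleen. In liver against thymus the H2-K1 estimate of 0.92 lay above the H2-D1 interval, but the intervals of the 2 genes overlapped (H2-K1 0.52 to 1.33).

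The ratio of H2-K1 to H2-D1 within a library does not depend on scaling. It was 0.986, 1.13 and 1.36 in thymus, 1.70, 2.18 and 1.91 in liver and 1.36, 1.85 and 2.26 in spleen. All liver ratios were above all thymus ratios, and the lowest spleen ratio was within the thymus range. The exact two-sided permutation test on the log2 ratio gave p = 0.1 for liver against thymus, the smallest that 3 against 3 allows, and 0.2 for spleen against thymus; over the 12 such tests of 4 ratios the lowest Benjamini-Hochberg adjusted p was 0.4. The ratios were chosen after the values had been seen. The summed 10 genes took 0.719, 0.566 and 0.820% of library values in thymus, 0.904, 1.25 and 1.22% in liver and 0.752, 0.879 and 1.15% in spleen.

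**Figure D3:**
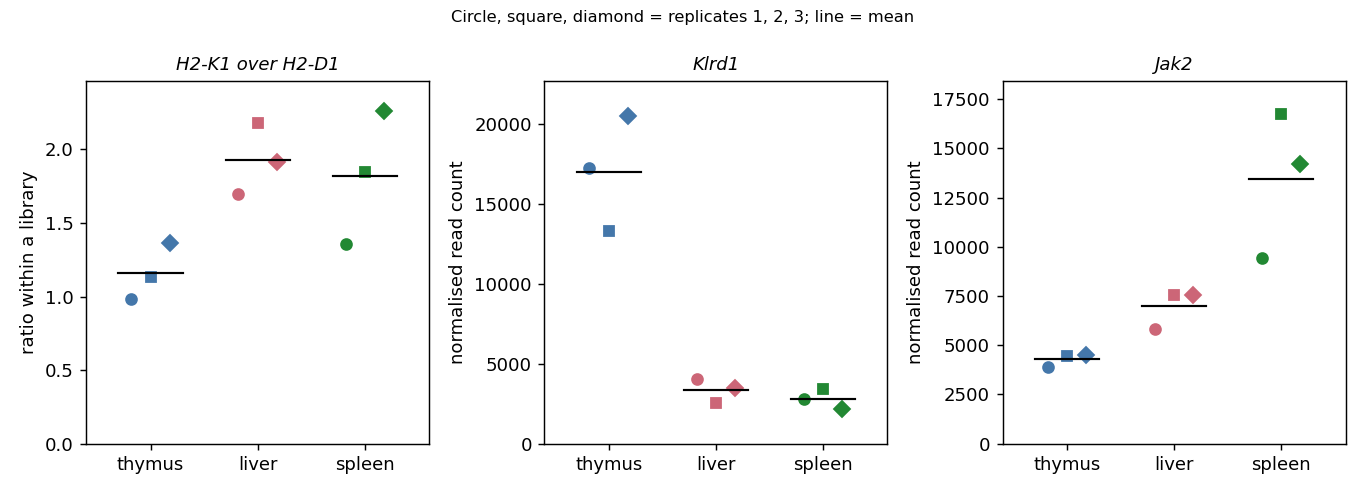
Ratio of H2-K1 to H2-D1 within a library, and normalised read counts of Klrd1 and Jak2, by tissue; circles, squares and diamonds are replicates 1, 2 and 3, lines are means, and each axis starts at 0. Klrd1 is at least 13285 in every thymus library and at most 4044 in the other 6.

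The non-classical chains did not pass the test either. H2-Q7 (ENSMUSG00000060550; chr17:35439155-35443773, plus strand), which encodes a Qa-2 antigen, had 12616, 5882 and 13604 in thymus, 21560, 18192 and 16716 in liver and 10706, 12783 and 16532 in spleen. The liver values were above all thymus and all spleen values. Its log2 fold change was 0.90 in liver against thymus (0.27 to 1.53, adjusted p = 0.262, limma-trend), and 0.51 without thymus replicate 2. In spleen against thymus it was 0.39 (-0.24 to 1.02), and 0.0030 without thymus replicate 2.

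H2-T23 (ENSMUSG00000067212; chr17:36029773-36032855, minus strand), which encodes Qa-1, had 184, 1311 and 2190 in thymus, 1702, 2600 and 1969 in liver and 1682, 1785 and 2869 in spleen. The groups overlapped. The thymus mean was set by replicate 1: the liver log2 fold change of 1.35 (-0.16 to 2.85) was 0.28 without it, and that of spleen went from 1.34 to 0.27.

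Neither gene of the transporter passed. Tap1 (ENSMUSG00000037321; chr17:34187553-34197225, plus strand) had 8253, 4407 and 3516 in thymus, 3861, 5572 and 5487 in liver and 7460, 4790 and 8026 in spleen, with overlapping groups. Its log2 fold changes were -0.04 (-0.78 to 0.71) in liver and 0.39 (-0.36 to 1.13) in spleen against thymus. The liver estimate changed sign in 7 of 25 alternatives. Tap2 (ENSMUSG00000024339; chr17:34203527-34216321, plus strand) had 92.0, 964 and 484 in thymus, 865, 614 and 879 in liver and 1495, 1315 and 1250 in spleen. The spleen values were above all values of the other tissues. Its log2 fold change was 1.94 in spleen against thymus (0.32 to 3.56, adjusted p = 0.333, limma-trend) and 0.98 without thymus replicate 1, where Tap2 was lowest. In liver against thymus it was 1.14 (-0.48 to 2.76), and 0.18 without that library. Without thymus replicate 2 the estimates for Tap2 were 2.67 in spleen and 1.87 in liver. The ratio of Tap1 to Tap2 was 89.8 in thymus replicate 1 and between 3.64 and 9.07 in the other 8 libraries.

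Tapbp (ENSMUSG00000024308; chr17:33915899-33929292, plus strand) had 1833, 2454 and 3072 in thymus, 3713, 4329 and 3646 in liver and 5340, 2732 and 3921 in spleen. Liver lay above thymus without overlap, and spleen overlapped both. The log2 fold changes were 0.69 (-0.06 to 1.45) and 0.68 (-0.07 to 1.44) in liver and spleen against thymus, with adjusted p of 0.464 and 0.469 (limma-trend).

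Erap1 (ENSMUSG00000021583; chr13:74639568-74693201, plus strand) ranged from 2405 to 7994 over the 3 thymus libraries, from 3681 to 4506 in liver and from 4344 to 4674 in spleen. The liver and spleen values lay within the thymus range. Nlrc5 (ENSMUSG00000074151; chr8:94434356-94527272, plus strand) ranged from 4026 to 7045 in thymus, 6499 to 8452 in liver and 4226 to 8577 in spleen, with overlap throughout. Neither estimate against thymus was further from 0 than 0.44. The intervals of Nlrc5 were -0.24 to 1.12 in liver and -0.48 to 0.87 in spleen against thymus, and those of Erap1 -0.80 to 0.86 and -0.66 to 0.99. Without thymus replicate 2 the estimates for Erap1 were 0.53 in liver and 0.66 in spleen.

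**Figure D4:**
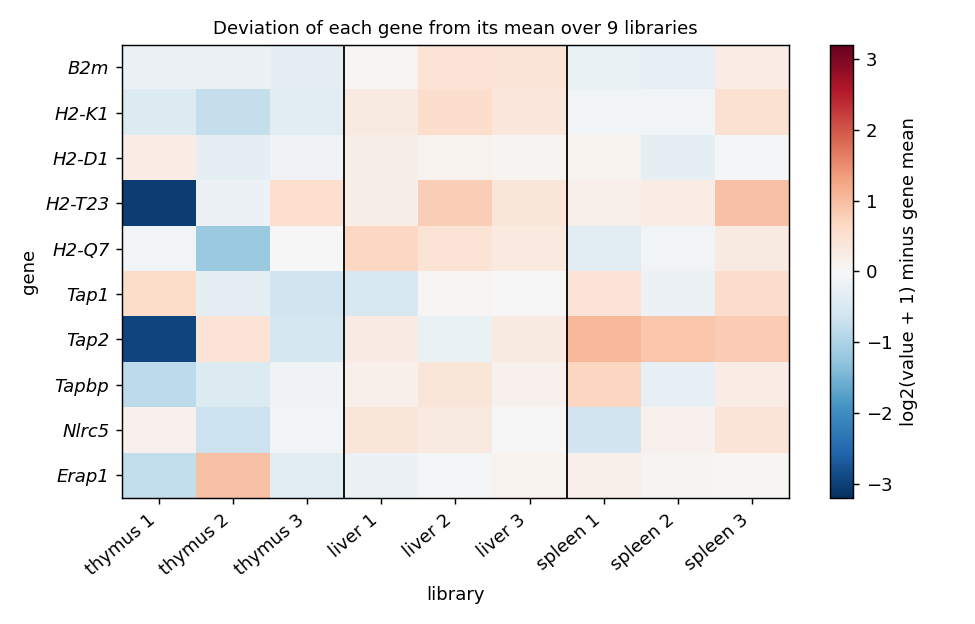
Deviation of log2(value + 1) from the mean of each gene over 9 libraries, for the 10 genes (rows) and the libraries (columns); red is higher and blue lower. The largest are the lows of H2-T23 (-3.03) and Tap2 (-2.95) in thymus replicate 1.

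Apart from the rank given for B2m, levels between genes were compared per kilobase of exon (union of GENCODE M21 exons on GRCm38). B2m was highest, with a median over the 9 libraries of 130302 normalised read counts per kilobase, and its lowest library (121565) lay above the highest of any other gene (19449, H2-K1). H2-K1 (12394) and H2-D1 (10098) followed with overlapping ranges, then H2-Q7 (3190), whose range (1379 to 5055) did not reach that of H2-D1 (7645 to 11180). Tapbp (1005), Tap1 (1002), Nlrc5 (829), H2-T23 (618), Erap1 (597) and Tap2 (232) came below, and neighbours in that order overlapped. The exons of these genes share bases with other genes: of 75-base windows, 17.0% of H2-Q7, 18.6% of Tapbp, 10.4% of Erap1, 8.27% of Tap2, 5.91% of H2-T23, 5.56% of H2-D1, 3.10% of H2-K1, 2.40% of Tap1, 0.0462% of Nlrc5 and none of B2m occurred exactly in another gene. How the authors counted reads that match more than 1 gene is not given in the sources used here, so levels of the genes with the largest shares, Tapbp and H2-Q7, are the least certain in this respect.

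**Figure D5:**
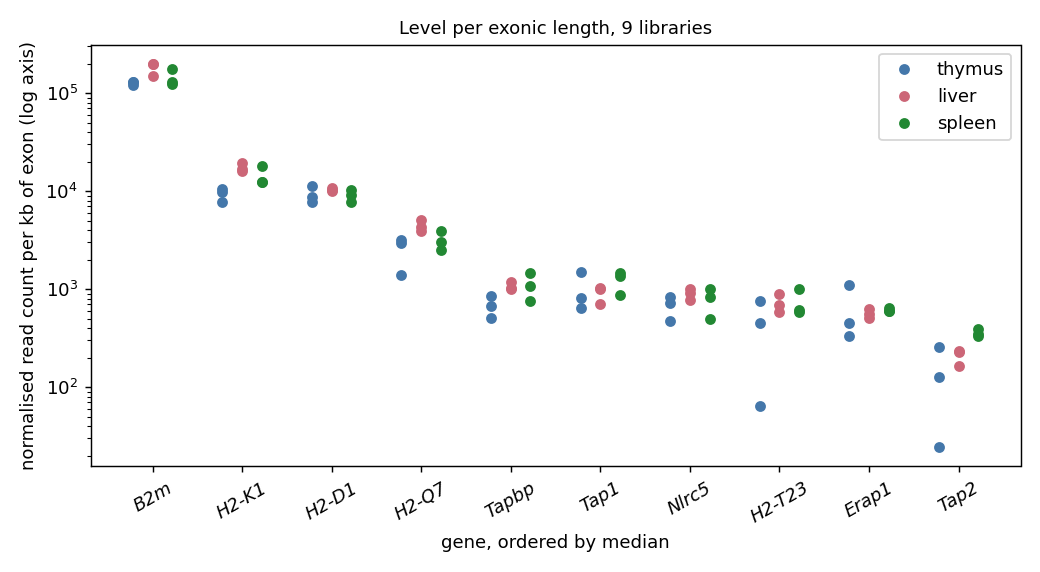
Normalised read count per kilobase of exon on a log axis for the 10 genes in order of their median, with 1 point per library coloured by tissue. B2m lies above all others, and H2-T23 and Tap2 have the lowest thymus points.

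Across the 9 libraries the log2 values of the 45 pairs of genes had a median Pearson r of 0.25, with 34 pairs above 0. These are a description, since the libraries share tissue and scaling. The highest were H2-Q7 with Nlrc5 (0.86) and H2-K1 with H2-Q7 (0.85), and the lowest was H2-D1 with Erap1 (-0.62). Of 9594 other genes with a mean of at least 100, those closest over the 9 libraries to the mean pattern of the 10 genes were Ly6a (r = 0.96), Usp32 (0.95), Pdia3 (0.95), Ndufs6 (0.94) and Cxcl10 (0.94).

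Other genes of the pathway gave few calls. None of 13 other class I heavy chains tested or 12 loading and quality-control genes passed in any comparison. Nor did any of 11 peptide-generating genes or 10 class II genes. Psmb9, 1 immunoproteasome subunit, was listed but no row was found under its symbol, so it was not analysed. Of the other class I heavy chains, H2-M3 had 1284 ± 685, 1062 ± 479 and 1914 ± 362 (mean ± SD, n = 3) in thymus, liver and spleen, and Cd1d1, the lipid-presenting molecule, 151 ± 103, 192 ± 82.9 and 257 ± 51.3. Among loading genes, Canx (calnexin) had 6652, 3234 and 5090 in thymus, 9921, 7544 and 7946 in liver and 5963, 5982 and 7399 in spleen. Its liver values were above all the others, with a log2 fold change of 0.81 against thymus (0.18 to 1.45, adjusted p = 0.308, limma-trend). Against thymus, Calr (calreticulin) had 0.01 in liver and -0.05 in spleen, Pdia3 0.46 and 0.35, and Tapbpl -0.03 and -0.41. Of the proteasome genes, Psmb8 had 0.55 and 0.33, Psmb10 0.80 and 0.71, Psme1 0.43 and 0.71 and Psme2 0.14 and 0.74. The summed class II genes reached 7486 in spleen replicate 1, against 988 and 3651 in the other spleen libraries. They summed to at most 1924 in thymus and liver. The thymus sums were mostly Ctss, with 684, 1290 and 750, against 181 to 334 in liver. Cd74 was at most 8.82 in thymus, 602, 146 and 310 in liver and 3593, 4.76 and 644 in spleen. In liver against thymus 9 of the 10 class II estimates were above 0 and 1 was below.

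Of 19 regulators of class I genes tested, 1 passed (0.188% of all genes rose in spleen against thymus): Jak2, a kinase of interferon receptors, was higher in spleen than in thymus. It had 3893, 4466 and 4495 in thymus, 5850, 7570 and 7571 in liver and 9420, 16739 and 14221 in spleen. The tissues did not overlap. The spleen log2 fold change was 1.61 (SE 0.27, adjusted p = 0.0151, limma-trend) and passed in 18 of 25 alternatives; leaving out spleen replicate 2 gave an adjusted p of 0.127, and leaving out spleen replicate 3 gave 0.114. Irf1 and Rfx5, which act on class I promoters, had log2 fold changes of -0.32 and 0.33 in liver and -0.23 and 0.96 in spleen, all overlapping thymus. Nfya, named after its values were seen, encodes a subunit of the factor that binds CCAAT; it had 3618, 4650 and 3491 in thymus, 1261, 2080 and 1969 in liver and 678, 1217 and 1247 in spleen. Its thymus values were above all others, with log2 fold changes of -1.17 in liver (adjusted p = 0.30) and -1.94 in spleen (0.0648, limma-trend), and neither passed. Nfyb and Nfyc, which encode other subunits of the CCAAT-binding factor, went the other way. Nfyb had log2 fold changes of 1.49 in liver, where all values lay above thymus, and 0.87 in spleen, with overlap. The estimates of Nfyc were also above those of thymus in both tissues, with overlapping values. Neither Nfyb nor Nfyc passed.

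The other calls were among receptors for class I molecules. In liver 4 of 14 tested fell (Klrd1, Klrk1, Klra5 and Klra9; 0.120% of all genes fell) and in spleen 4 of 14 (Klrd1, Klra5, Klra9 and Klra1; 0.210%); none rose, and none passed between liver and spleen. The other 10 of each comparison did not pass. Among them, Cd160, a receptor, had 0.66 in liver and 0.69 in spleen, and Cd8a 5.23 and -2.69. Cd8a was near 0 in thymus replicates 1 and 2 and 257 in replicate 3. It was 1116, 146 and 85.8 in liver and 0 in spleen. Of the 14, 9 in liver and 12 in spleen had every value below thymus, against 5.73% and 6.03% of all genes. Klrc2, Klra3 and Klra6 were among these in both tissues and did not pass. Estimates above 0 numbered 3 in liver and 1 in spleen. Markers of other cells also differed in level between the tissues. Fcer1g, which NK and myeloid cells express, had 6967, 3191 and 4117 in thymus, 1960, 519 and 189 in liver and 1079, 471 and 237 in spleen. All its thymus values were above the others, and its log2 fold changes of -2.96 in liver (adjusted p = 0.165) and -3.19 in spleen (0.111, limma-trend) did not pass. The 3 NK cell markers listed (Ncr1, Eomes and Klra8) summed to 136 to 380 in thymus, 15.4 to 1054 in liver and 6.76 to 37.0 in spleen. Ncr1, an activating receptor of NK cells, was near 0 in thymus and 616, 13.7 and 131 in liver, whereas the Ly49 receptor Klra8 was 112 to 380 in thymus and at most 61.8 elsewhere. The 6 myeloid genes in the table, of 9 listed, summed to 3208 to 7003 in thymus, 533 to 2386 in liver and 394 to 2934 in spleen. The thymus sums were mostly Fcer1g. Lyz2 was at most 3.82 in thymus, 18.2, 8.55 and 404 in liver and 13.4, 0 and 0 in spleen. Csf1r was at most 12.6 in thymus and 1297 in spleen replicate 1, whereas Itgax was highest in thymus replicate 3 (444). The part of these other cells in the receptor calls was not tested. Klrd1 encodes CD94, the partner chain in the receptor for Qa-1. Its normalised read counts were 17224, 13285 and 20458 in thymus, 4044, 2565 and 3447 in liver and 2784, 3420 and 2173 in spleen. Every thymus value was above every other. Klrd1 fell by 2.34 on the log2 scale in liver (SE 0.31, adjusted p = 0.00355, limma-trend) and had -2.61 in spleen (adjusted p = 0.000783), and passed in 23 and 24 of 25 alternatives. Klrc1, which encodes its partner NKG2A, had -1.09 in liver and -1.14 in spleen, with adjusted p of 0.349 and 0.320 (limma-trend).

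Klrk1, the activating receptor NKG2D for class I-like ligands, fell by 1.71 in liver (adjusted p = 0.0267, limma-trend), and missed the threshold in 13 of 25 alternatives, among them without thymus replicate 1 (0.0522) and without each liver library in turn (0.0793 to 0.183). In spleen it had -1.45 (adjusted p = 0.0625). The Ly49 receptor Klra5 fell by 4.27 in liver (adjusted p = 0.0389) and had -5.01 in spleen (0.0131, limma-trend). Klra9 fell by 5.39 in liver (adjusted p = 0.0197) and had -5.39 in spleen (0.0158, limma-trend). Klra1 fell by 3.50 in spleen (adjusted p = 0.0380, limma-trend). With each library left out in turn, the adjusted p of Klra5 ran from 0.0200 (without spleen replicate 3) to 0.214 (without liver replicate 2) in liver and from 0.0103 to 0.0649 (without spleen replicate 2) in spleen. That of Klra9 ran from 0.0297 to 0.102 (without liver replicate 3) in liver and from 0.00252 to 0.0880 (without spleen replicate 1) in spleen. That of Klra1 ran from 0.0542 (without thymus replicate 3) to 0.160 (without spleen replicate 3), so every omission ended its call. Klra5 kept its call in 2 of 9 omissions in liver and in 7 of 9 in spleen, and Klra9 in 5 and 4. Ly49 genes are close copies of each other, so reads may be assigned between them.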

How the data were processed

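RNA-seq of iNKT1 cells gave 9 libraries, 3 per tissue, grouped by the tissue label. The labels' protocols give total RNA from a micro kit, an ultralow-input library kit and 76 cycles on a NextSeq500. The submitters' processing notes name Trimmomatic 0.33, TopHat2 2.1.0, HTSeq 0.6.1, edgeR and mm10; the annotation and scaling are not given in the sources used here. The authors deposited 1 table of normalised read counts, a signal that is not whole numbers. Symbols matched 13359 of 14004 identifiers.

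The test was limma-trend (limma 3.58.1, R 4.3.3) on log2(value + 1) in 1 fit of all 9 libraries by tissue. A gene was kept when 3 or more libraries reached a value of 1. P-values are two-sided with Benjamini-Hochberg adjustment over 13309 genes. Fold changes on that scale understate low genes. Where the steps of low values gave whole reads (at least 99.4% of values of at most 20 reads within 0.1 reads of a whole number, 7 libraries; 42.5% and 58.0% in liver replicate 3 and spleen replicate 3), edgeR 4.0.16 and DESeq2 1.42.0 were alternatives; their calls over all genes are in the closing section. Other alternatives were scaling, filter, pseudocount, array weights, a replicate block and leaving out libraries. The fits were tested on simulated data.

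Named were all 10 genes, a set of pathway genes whatever their values (some are not reported here), up to 4 others per list and comparison past the threshold, and the 5 genes most alike in pattern with a mean of at least 100. The genes, lists and tests were chosen with earlier results of these data known.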

Additional observations from a re-analysis of the deposited data

How the results depend on the processing

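No class I presentation gene was called in spleen against thymus, in liver against spleen or in the F-test under any of the alternatives run (25, 25 and 24). In liver against thymus H2-K1 alone was called, so that the count was 1 in place of 0, with equal library totals without mitochondrial genes, with a replicate block and without thymus replicate 3; with each library left out in turn the count ran from 0 to 1. Samples with the same replicate number had correlated deviations of -0.001 to 0.089, so the numbers were not taken to pair them, and the block changed no other call of the 10 genes. The planned edgeR, DESeq2 and blocked edgeR fits on 9 libraries were not run, since whole reads were recovered in 7 only; the fits on those 7 and the omissions of doubted libraries were chosen after seeing the data. Over the alternatives, calls among all genes ran from 2 to 285 in liver against thymus, 4 to 291 in spleen against thymus, 0 to 73 in liver against spleen and 6 to 164 in the F-test. The highest counts were those of DESeq2. Where thymus replicate 3 stands alone, it is assumed to vary like the other groups.

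The sign of a fold change differed from the reported one in 52 repeats, each time with neither value past the threshold; the cause was not tested. With equal library totals, the estimate was 0.11 for Tap1 in liver against thymus, 0.15 for H2-D1 in spleen against thymus and -0.013 for H2-T23 and -0.0071 for Tapbp in liver against spleen. With equal totals without mitochondrial genes, the estimate was 0.13 for Tap1 in liver against thymus and 0.14 for H2-D1 in spleen against thymus. With TMM scaling, the estimate was -0.10 for H2-D1 and -0.26 for Erap1 in liver against thymus and -0.17 for B2m, -0.11 for Nlrc5 and -0.15 for Erap1 in spleen against thymus. With array weights, the estimate was 0.23 for Tap1 in liver against thymus. By edgeR on the 7 libraries with whole reads, the estimate was -0.22 for Erap1 in liver against thymus, -0.0080 for B2m in spleen against thymus and -0.0057 for Tapbp in liver against spleen. By DESeq2 on the 7 libraries with whole reads, the estimate was -0.27 for Erap1 in liver against thymus, -0.059 for B2m, -0.050 for Nlrc5 and -0.042 for Erap1 in spleen against thymus and -0.0074 for Tapbp in liver against spleen. By limma-trend on the 7 libraries with whole reads, the estimate was -0.043 for Erap1 in liver against thymus and -0.021 for B2m and -0.018 for Nlrc5 in spleen against thymus. By edgeR with a replicate block on the 7 libraries with whole reads, the estimate was -0.26 for Erap1 in liver against thymus and -0.043 for B2m, -0.027 for Tap1 and -0.0083 for Erap1 in spleen against thymus. Without liver replicate 1 and spleen replicate 1, the estimate was 0.13 for Tap1 in liver against thymus and -0.00043 for H2-T23 and -0.13 for Nlrc5 in liver against spleen. With thymus replicate 3 as the only thymus library, the estimate was -0.090 for H2-T23 and 0.48 for Tap1 in liver against thymus and 0.040 for H2-D1, -0.095 for H2-T23 and -0.051 for H2-Q7 in spleen against thymus. With each library left out in turn, estimates in liver against thymus ran from -0.30 to 0.32 for Tap1 and from -0.34 to 0.53 for Erap1. With each library left out in turn, estimates in spleen against thymus ran from -0.14 to 0.13 for H2-D1, from -0.20 to 0.66 for Erap1, from -0.036 to 0.49 for Nlrc5 and from -0.021 to 0.23 for B2m. With each library left out in turn, estimates in liver against spleen ran from -0.16 to 0.25 for H2-T23, from -0.24 to 0.25 for Tapbp and from -0.052 to 0.46 for Nlrc5.

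The depth of liver replicate 3 and spleen replicate 3 is uncertain, since their whole reads were not recovered, and the labels mention no molecular identifiers.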
